A study of Mus musculus with 6 samples.

Results

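The expression profile described here is that of control MC3T3-E1 cells, a murine preosteoblast line from skull bone that the labels assign to strain C57BL/6 and passage 4. RNA sequencing covered 6 libraries, and the members are the 3 that the sample titles name as the control group, numbered replicates 1 to 3. The other 3 libraries, from cells that received the anthocyanin cyanidin-3-O-glucoside, are not described. The control cells were grown in α-MEM with 10% fetal bovine serum, held for a day in serum-free medium so that they were synchronised, and then returned to complete medium without this compound for another day. The study calls these controls vehicle-treated in one place and untreated in another, and the labels name no vehicle. No osteogenic induction is stated for them. The cells are 1 line, and nothing in the labels says that the 3 libraries came from separate cultures, so the spread given below is the spread between these 3 libraries and may be technical. The question is which lineage, matrix, secretory, signalling and housekeeping genes the control cells expressed and at what level.

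Osteoblasts arise from mesenchymal progenitors under the transcription factor *Runx2* and, downstream of it, *Sp7*. They lay down a matrix made mostly of type I collagen with smaller amounts of proteins such as osteonectin (*Sparc*) and osteopontin (*Spp1*), and later mineralise it with the help of alkaline phosphatase and osteocalcin. A preosteoblast is a cell committed to this path that still divides, and MC3T3-E1 cells are used as a model of it because they can be induced to mature in culture.

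The authors deposited 1 FPKM value per gene and library. FPKM is the number of sequenced fragments from a gene divided by its length in kilobases and by the number of mapped fragments of the library, so that levels of different genes can be set side by side per unit of length. All 3 libraries list the same 11234 genes, of which 11186 are protein coding. The mouse annotation GENCODE M21 holds 21951 protein-coding genes. Counts of list members with a value are to be read beside this share, and none was tested against it. Each listed gene reached a mean of at least 0.5 FPKM in at least 1 of the study's 2 groups. A gene without a row has no value here, and whether it was silent or was left out for another reason was not tested. The listed values summed to 248230, 245762 and 246768 FPKM in replicates 1, 2 and 3, and 71, 9 and 14 genes were listed at 0. The depth of the libraries is unknown, so no counting error can be given.

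Control replicate 1 stood apart from the other 2 libraries. Replicates 2 and 3 correlated at 0.988 over the genes (Pearson's r, values as log2(FPKM + 1); genes do not count as replicates), whereas replicate 1 correlated with them at 0.886 and 0.898. In FPKM + 1, replicates 2 and 3 differed by more than 2-fold in 0.614% of genes, whereas replicate 1 did so in 22.6% of genes against replicate 2 and in 20.2% against replicate 3. The added 1 FPKM makes these shares lower than they would be in FPKM itself, most of all for low genes. Any library lies outside the other 2 in many genes by ordering alone, since 2 of 3 values are always at the ends. Replicate 1 did so in 10403 genes, being the highest in 4097 (36.5%) and the lowest in 6306 (56.1%) of all listed genes. For this reason the value of each library is given for most genes named, with the mean of replicates 2 and 3 where leaving out replicate 1 moved a mean by more than 1.5-fold. This was so for 392 genes (3.49%), of which 376 had the lower mean without replicate 1.

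Genes were ranked by their mean FPKM over the 3 libraries and placed in 4 classes, namely abundant (at least 100 FPKM), moderate (10 to under 100), low (1 to under 10) and very low (under 1). The abundant class held 353 genes, which were 3.14% of the genes and 44.1% of the summed mean FPKM. The moderate class held 4058 genes and 44.5% of the sum, the low class 6031 genes and 11.2%, and the very low class 792 genes and 0.220%. The median of the gene means was 7.09 FPKM, with quartiles of 2.99 and 16.8 FPKM. At least 1 FPKM was reached in all 3 libraries by 9604 genes (85.5%). Abundant genes had shorter transcripts, with a median length of 1853 bases in the longest annotated transcript, against 3747 bases in the low class. Membership of a class was the same in all 3 libraries for 261 of the 353 abundant genes and 454 of the 792 very low genes.

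**Figure D1:**
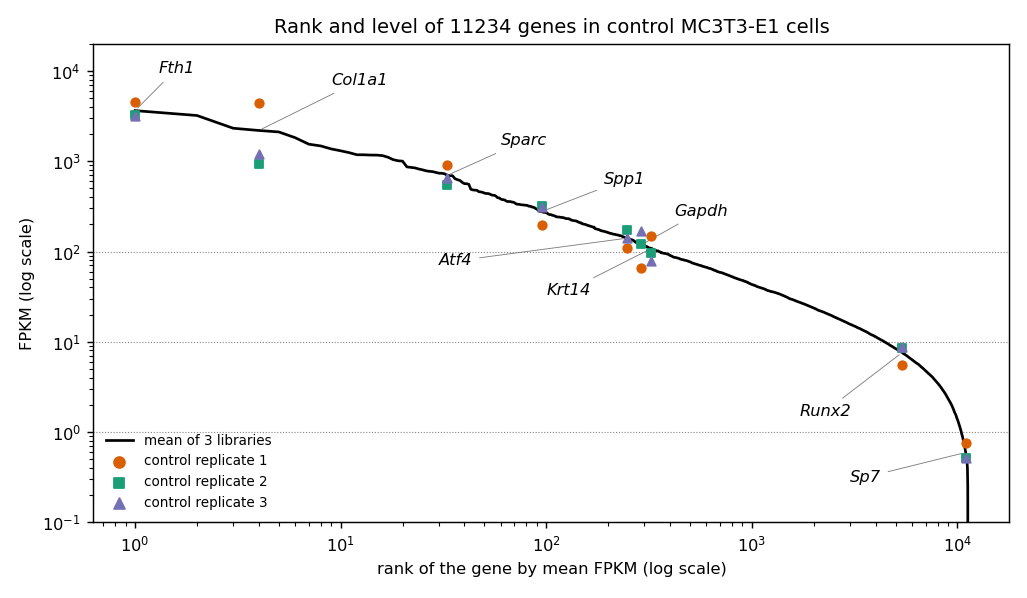
Mean FPKM of the 3 control libraries (black line, log scale) against the rank of each gene (log scale), with the value of each library for 9 named genes (orange circles, control replicate 1; green squares, replicate 2; purple triangles, replicate 3). Dotted lines mark 100, 10 and 1 FPKM. *Col1a1* and *Sparc* sit near the top with replicate 1 highest, *Runx2* lies near the middle of the ranking, and *Sp7* lies near its end.

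The 4 marker genes of the lineage all had values, in the order *Col1a1*, *Sparc*, *Spp1* and *Runx2*. *Col1a1* (chr11:94936224-94953042, plus strand, GRCm38), which encodes the α1 chain of type I collagen, ranked 4 of 11234, with 4432, 942 and 1221 FPKM in replicates 1, 2 and 3 (mean 2199 ± 1939, SD, n = 3). Replicate 1 was far above the others, and without it the mean was 1082 FPKM and the rank 13. *Sparc* (chr11:55394500-55423183, minus strand), which encodes a collagen-binding matrix glycoprotein, ranked 33 with 901, 548 and 649 FPKM (mean 699 ± 182). Its ranges overlapped neither those of *Spp1* nor those of *Runx2*.

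*Spp1* (chr5:104435118-104441050, plus strand), the gene of the bone sialoprotein osteopontin, had 197, 323 and 312 FPKM (mean 277 ± 69.5, rank 95). Here replicate 1 was the lowest library. *Runx2* (chr17:44495987-44814797, minus strand) had 5.46, 8.49 and 8.81 FPKM (mean 7.59 ± 1.85, rank 5384), which was at the 52.1st percentile of the listed genes and so next to the median. All 4 genes given as markers of the labelled cell type thus had values in every library, 3 of them in the abundant class and the transcription factor in the low class.

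Start-site windows of the highest genes are shown because they are the sequences from which these transcripts begin. RefSeq windows (GRCm38.p6) were matched by symbol for 8801 of the 11234 listed genes, and for 16 of the 33 genes that are a marker or among the 30 highest. In 8 of these the window began transcription within 50 bases of the 5′ end of the gene in GENCODE M21. The 4 below run from 100 bases before to 20 bases after the RefSeq start, 5′ to 3′ on the strand of the gene, and capitals mark the TATA box core TATAAA. They also mark, on either strand, the CCAAT box and the GC box letters GGGCGG. *Spp1* (chr5:104435011-104435130, plus strand) is a marker. *S100a4* (chr3:90603670-90603789, plus strand), *S100a11* (chr3:93520396-93520515, plus strand) and *Rplp0* (chr5:115559367-115559486, plus strand) are among the 30 highest genes and each shows a different kind of match in this stretch. The 4 were printed because they hold a match. The rest of the 8, *Fth1*, *Rps15*, *Rpl19* and *Rps3a1*, held none of these motifs where they were searched. *Rplp0* also held a GC box upstream of the stretch shown.
Spp1: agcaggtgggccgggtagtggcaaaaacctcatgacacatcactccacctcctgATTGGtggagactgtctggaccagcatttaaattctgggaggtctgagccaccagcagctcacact
S100a4: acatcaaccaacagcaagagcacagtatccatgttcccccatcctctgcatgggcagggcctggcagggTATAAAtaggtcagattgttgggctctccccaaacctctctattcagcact
S100a11: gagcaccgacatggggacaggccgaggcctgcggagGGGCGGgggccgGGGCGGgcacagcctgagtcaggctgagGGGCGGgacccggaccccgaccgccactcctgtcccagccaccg
Rplp0: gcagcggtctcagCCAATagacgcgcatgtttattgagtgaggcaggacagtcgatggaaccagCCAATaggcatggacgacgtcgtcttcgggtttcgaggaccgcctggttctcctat

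TATAAA, the core of the TATA box, was searched on the strand of the gene from 45 to 15 bases before the start. It was found in 10 of 263 abundant genes with a window (3.80%), 33 of 3229 moderate genes (1.02%), 37 of 4738 low genes (0.781%) and 9 of 571 very low genes (1.58%). The share was 1.01% over all listed genes with a window and 2.14% over all 32851 windows of the table. Each listed gene gave only the window nearest its annotated start, so all windows are an unlike set. GGGCGG, the GC box, was searched on both strands over the 250 bases before the start. It was present in 58.2% of abundant, 65.2% of moderate, 61.7% of low and 44.3% of very low genes. It was in 61.7% of all listed genes and 32.7% of all windows. CCAAT, searched in the same way, was in 38.0%, 39.2%, 36.9% and 36.8% of the 4 classes, 37.8% of all listed genes and 33.8% of all windows. CTTTC, a pyrimidine run of the kind found at starts of translation genes, was searched from 10 bases before to 20 bases after the start on the strand of the gene. It was held by 14 of 58 cytosolic ribosomal protein genes (24.1%). By class it was in 8.75% of abundant, 2.82% of moderate, 3.08% of low and 3.68% of very low genes. Over all listed genes the share was 3.19%, and over all windows 3.74%. Of the 79 ribosomal protein genes with a value 68 were abundant, so the ribosomal and abundant shares are not separate observations. A match is a run of letters, and no binding was measured.

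The 30 highest genes were mainly genes of mitochondria and ribosomes. They held 10 of the 13 protein genes of the mitochondrial genome and 11 cytosolic ribosomal protein genes of the list, beside *Rps3a1*, a ribosomal protein gene outside it. The other 8 were *Fth1*, *Col1a1*, *Fn1*, *Lgals1*, *Col1a2*, *Eef1a1*, *S100a11* and *S100a4*. *Fth1*, the heavy chain of the iron store ferritin, was the highest gene of all with 4541, 3259.9 and 3146 FPKM (mean 3649 ± 775). It was the highest gene of replicate 1 and the third of replicates 2 and 3.

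*Fn1*, the matrix protein fibronectin, was the most even of the 8 with 1471, 1469 and 1505 FPKM (mean 1481 ± 20.4, rank 8). *Lgals1*, a galactose-binding lectin, had 2258, 822 and 845 FPKM, with replicate 1 well above the others and a mean of 833 without it. *Eef1a1*, which carries aminoacyl-tRNA to the ribosome, had 702, 942 and 959.7 FPKM. The calcium-binding protein genes *S100a11* and *S100a4* had 442, 940.0 and 925 FPKM and 871, 656 and 690.5 FPKM. Replicate 1 was thus the lowest library for *S100a11* and the highest for *S100a4*.

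Which genes led depended on the library. Replicates 2 and 3 shared all of their 10 highest genes, while replicate 1 shared only 1 with each of them, *Fth1*. Of the 30 highest genes, 28 were common to replicates 2 and 3 and 15 to all 3 libraries. Mitochondrially encoded genes filled 12 of the 30 highest places in replicate 2 and 12 in replicate 3, but 1 in replicate 1. The number of genes with a mean of at least 1000 FPKM was 20 over 3 libraries and 13 over replicates 2 and 3.

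Mitochondrially encoded proteins, which are subunits of the respiratory chain and of ATP synthase, were all 13 in the abundant class. *mt-Co1*, a catalytic subunit of cytochrome c oxidase, had 471, 4508 and 4689 FPKM. *mt-Atp6*, a subunit of ATP synthase, had 35.3, 2386 and 2226 FPKM, which was 65.3 times higher in the mean of replicates 2 and 3 than in replicate 1. Replicate 1 was below both other libraries in 13 of 13 of these genes, against 56.1% of all listed genes, and the 13 together took 0.906%, 11.0% and 10.4% of the summed FPKM of replicates 1, 2 and 3.

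*mt-Nd6*, the only one of the 13 on the light strand, had the lowest mean of them with 35.4, 175 and 319.9 FPKM (mean 177, and 105 without replicate 3). Reads from nuclear copies of mitochondrial genes can be assigned to either place, and how the authors assigned them is not given in the sources used here.

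Replicate 1 departed from the others along transcript GC content. Over 11211 genes, GC content and the difference in log2(FPKM + 1) of replicate 1 from the mean of replicates 2 and 3 had a Spearman's rho of 0.748, which was also 0.748 without the mitochondrial genes. The same measure was 0.165 for replicate 3 against replicate 2. When genes were divided into 10 equal bins by GC content, those in the lowest bin (31.0% to 41.1%) had a median difference of -1.18 in replicate 1, on the log2(FPKM + 1) scale, which understates the change of low genes. Those in the highest bin (57.9% to 76.3%) had a median difference of 0.68 on that scale.

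**Figure D2:**
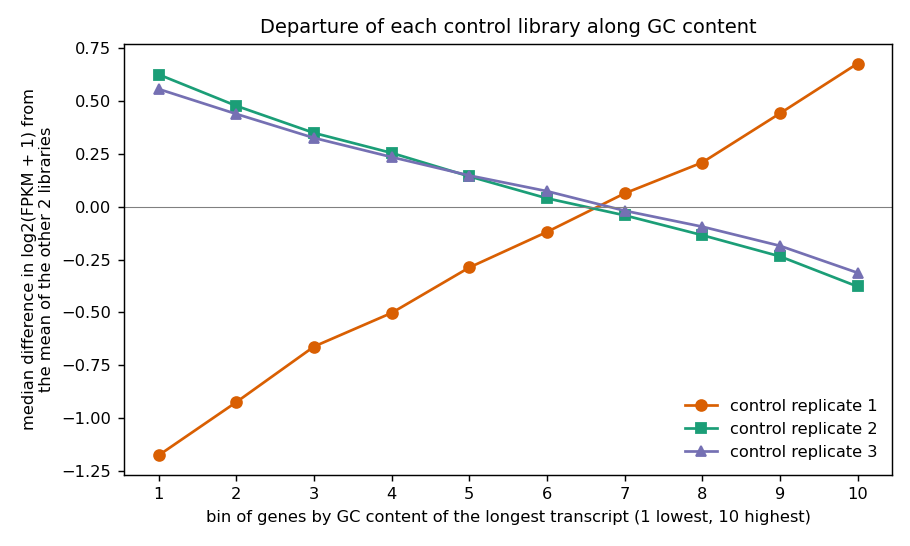
Median difference in log2(FPKM + 1) of each control library from the mean of the other 2 (vertical axis), by 10 bins of genes ordered by GC content of the longest annotated transcript (horizontal axis, 1 lowest to 10 highest). Replicate 1 (orange circles) climbs from -1.18 to 0.68, while replicates 2 (green squares) and 3 (purple triangles) fall together.

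Single genes with a mean of at least 10 FPKM that departed most upward in replicate 1 were *Gm20458*, ENSMUSG00000095742.1, *Exosc6*, *1810049J17Rik* and *Pcdhgc3*. *Exosc6*, a subunit of the RNA exosome, had 51.2, 1.60 and 1.84 FPKM, with a mean of 18.2 FPKM over 3 libraries and 1.72 FPKM without replicate 1. The means of *Gm20458*, *1810049J17Rik* and *Pcdhgc3* fell from 10.6, 11.9 and 15.3 FPKM to 0.321, 1.75 and 3.86 FPKM in the same way. These 4 reached a mean of 10 FPKM only through their value in replicate 1, so the limit itself favoured genes that are high there. ENSMUSG00000095742.1, which has no symbol here, had 898, 32.1 and 43.4 FPKM and would rank 1183 rather than 81 without replicate 1. The 5 that departed most downward were *mt-Atp6*, *mt-Nd4*, *mt-Nd2*, *mt-Nd5* and the histone gene *Hist2h2aa1*. The last was listed at 0 in replicate 1 with 19.8 and 22.1 FPKM in the others, and is uncertain because a near-identical copy can share its reads.

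Of 16 matrix and surface genes of osteoblasts, 9 had a value, a share near that of all protein-coding genes (11186 of 21951). Of the 9, 5 were abundant, and the median of the 9 was 143 FPKM against 7.09 FPKM over all listed genes. Beside *Col1a1*, *Sparc* and *Spp1* the abundant ones were *Col1a2*, the α2 chain of type I collagen, and *Cdh11*, the osteoblast cadherin. *Col1a2* had 1995, 593 and 742 FPKM, again with replicate 1 highest and a mean of 667 without it. *Cdh11* was even, with 129, 146 and 154 FPKM.

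The level of *Col1a1* was 2.22, 1.59 and 1.65 times that of *Col1a2* in the 3 libraries, on the FPKM scale. Both chains form the type I collagen triple helix. *Postn*, periostin, which marks periosteal cells, was moderate with 44.0, 56.9 and 92.7 FPKM. *Omd*, osteomodulin, had 0.203, 1.65 and 1.72 FPKM. *Ifitm5*, a late gene of mineralising osteoblasts, had 1.24, 0.912 and 0.338 FPKM, and *Pth1r*, the receptor of parathyroid hormone, 0.737, 0.347 and 0.467 FPKM. The last pair overlapped and could not be ordered. *Ibsp*, *Bglap*, *Bglap2*, *Bglap3*, *Alpl*, *Phospho1* and *Cadm1* had no value here. The order from *Sparc* down to *Omd* held in every library without overlap between neighbours.

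Transcription factors of the lineage spanned from 141 to 0.592 FPKM. Of 20 in the list 16 had a value, of which 1 was abundant, 7 moderate, 6 low and 2 very low, with a median of 9.66 FPKM. *Atf4*, which drives amino acid uptake and late osteoblast genes, led with 108, 172 and 142 FPKM and was above the next factor in every library without overlap. *Prrx1*, a homeobox factor of limb and skull mesenchyme, had 32.6, 80.9 and 88.9 FPKM. *Cbfb*, the partner subunit that stabilises *Runx2* on DNA, had 11.4, 47.7 and 42.1 FPKM, so that replicate 1 was the lowest library for all 3.

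A middle group had overlapping ranges. *Twist1*, which restrains *Runx2* activity, had 24.2, 12.7 and 13.5 FPKM. *Dlx5*, a homeobox activator of osteoblast genes, had 7.86, 15.1 and 14.2 FPKM. *Snai2*, a zinc finger factor of mesenchymal cells, had 4.42, 17.0 and 14.1 FPKM. The order of neighbours among *Twist1*, *Dlx5* and *Snai2* changed between libraries. *Runx2* itself overlapped with the AP-1 member *Fosl2*, which had 6.01, 10.9 and 6.66 FPKM.

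*Sp7*, the factor that acts after *Runx2*, was the lowest with 0.753, 0.512 and 0.510 FPKM (mean 0.592 ± 0.140, rank 10968). *Runx2* was 7.25, 16.6 and 17.3 times higher than *Sp7* in replicates 1, 2 and 3. *Msx2*, a homeobox gene of skull sutures, was also very low with 0.612, 1.18 and 0.843 FPKM. *Dlx3*, *Tcf7*, *Lef1* and *Hey1* had no value here.

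**Figure D3:**
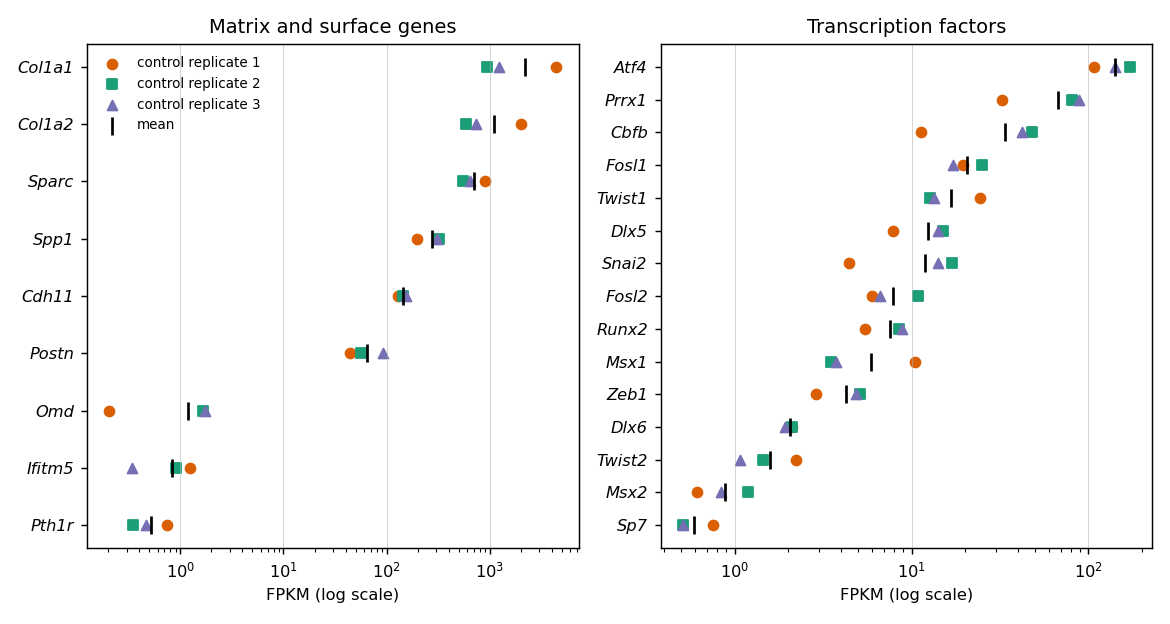
FPKM (log scale) in each control library of the 9 matrix and surface genes (left) and 15 of the 16 transcription factors (right) of the osteoblast lineage that had a value, ordered by mean (black bars). Orange circles stand for replicate 1, green squares for replicate 2 and purple triangles for replicate 3. *Col1a1*, *Col1a2* and *Sparc* are highest in replicate 1.

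Markers of osteocytes, the cells into which osteoblasts mature inside bone, had a value for 4 of 8. This is close to the share of all protein-coding genes (11186 of 21951). *Pdpn*, an early gene of this step, had 43.6, 106 and 95.2 FPKM, and *Irx5* 37.3, 23.7 and 26.5 FPKM. *Dmp1*, a phosphoprotein of mineralising matrix, had 17.0, 6.50 and 8.04 FPKM, with replicate 1 the highest. *Phex*, a peptidase that controls phosphate, had 0.287, 1.73 and 1.29 FPKM, and *Sost*, *Mepe*, *Fgf23* and *Dkk1* had no value here.

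Mesenchymal and fibroblast markers had a value for 10 of 14, with a median of 32.1 FPKM. *S100a4* (above) and *Vim*, the intermediate filament vimentin (332, 279 and 321 FPKM), were abundant and came without overlap in that order. The platelet-derived growth factor receptor genes *Pdgfrb* and *Pdgfra* had 38.1, 29.4 and 26.7 FPKM and 26.9, 26.7 and 29.7 FPKM, which overlapped. *Ly6a*, the stem cell antigen Sca-1, had 13.7, 23.5 and 33.7 FPKM. *Eng*, the co-receptor endoglin, was very low at 0.800, 0.681 and 0.821 FPKM, and *Thy1*, *Nt5e*, *Fap* and *Lepr* had no value here.

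Genes of other cell types were read in the same way. In bulk RNA a small number of cells of another type and a low level in every cell cannot be told apart. For chondrocytes 8 of 15 markers had a value, a share near that of all protein-coding genes (11186 of 21951). Their summed levels were 0.0405% to 0.0889% of the FPKM of a library. *Sox9*, the master factor of cartilage, had 106, 48.2 and 56.5 FPKM, and *Col2a1*, the collagen of cartilage, 104, 43.7 and 46.9 FPKM. The other 6 were at 2.07 FPKM or less in the mean, and *Acan*, *Comp*, *Col10a1*, *Ihh*, *Sox5*, *Matn3* and *Chad* had no value here. *Sox9* exceeded *Runx2* in every library and without overlap.

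Of the epithelial list, *Krt14*, a keratin of basal epithelium, had 149, 97.2 and 79.0 FPKM (mean 108 ± 36.1, rank 325), and *Cdh1*, epithelial cadherin, had 0.824, 0.524 and 0.929 FPKM. The other 6, among them *Krt5*, the usual partner of *Krt14*, and *Epcam*, had no value here. Macrophage and osteoclast genes had a value for 4 of 14. *Lyz2*, lysozyme, had 32.1, 40.4 and 38.2 FPKM, and *Ctsk*, a collagen-degrading protease best known from osteoclasts, 16.6, 33.1 and 34.5 FPKM. *Cd68* had 0.144, 0.639 and 1.08 FPKM (mean 0.621, and 0.392 without replicate 3), and the defining genes *Ptprc*, *Csf1r*, *Adgre1* and *Acp5* had no value here.

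Smooth muscle genes had a value for 6 of 8, with a median of 61.1 FPKM. *Acta2*, smooth muscle α-actin, was abundant with 228, 301 and 246 FPKM, as was the myosin light chain gene *Myl9* with 229, 73.8 and 76.6 FPKM (mean 127, and 75.2 without replicate 1). The tropomyosin gene *Tpm2* (92.9, 72.3 and 57.6 FPKM) and *Smtn*, smoothelin (62.0, 40.1 and 41.5 FPKM), were moderate. *Lmod1*, leiomodin, had 6.62, 5.87 and 5.56 FPKM. *Tagln*, transgelin, was the lowest with 1.37, 3.25 and 3.65 FPKM, and *Cnn1* and *Myh11* had no value here. Adipocyte genes were limited to *Cd36* (0.270, 3.60 and 1.92 FPKM) and *Cebpa* (3.71, 0.798 and 1.18 FPKM) of 12. The mean of *Cd36* was 1.93 FPKM, and 1.10 FPKM without replicate 2, and that of *Cebpa* 1.90 FPKM, and 0.988 FPKM without replicate 1. Of 10 skeletal muscle genes *Des*, desmin, was the 1 with a value (1.63, 0.715 and 1.09 FPKM). Neural genes had a value for 3 of 9, led by the tubulin gene *Tubb3* (6.40, 15.2 and 11.7 FPKM). None of the 9 endothelial genes had a value.

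Of 22 collagen genes in the list 20 had a value, 11 of them abundant and 6 moderate, with a median of 106 FPKM, and 75.1 FPKM over replicates 2 and 3. The list was chosen, and cartilage collagens such as *Col2a1*, *Col9a1* and *Col11a2* were counted with the chondrocyte markers instead. After type I came *Col6a1* (895, 249 and 301 FPKM), a microfibrillar collagen chain, *Col3a1* (457, 127 and 157 FPKM), a fibrillar partner of type I, and *Col5a2* (360.4, 177 and 186 FPKM), which starts collagen fibrils. Without replicate 1 the means of *Col6a1* and *Col3a1* were 275 and 142 FPKM. *Col3a1* and *Col5a2* could not be ordered, since they swapped places between libraries.

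Replicate 1 was high for collagens. It exceeded both other libraries in 18 of 20 genes, against 36.5% of all listed genes, and took 4.13% of its summed FPKM for collagens, against 1.19% and 1.42% in replicates 2 and 3. The median GC content of their transcripts was 56.5%, against 49.6% over all listed genes, and the part of GC content in this difference was not tested. *Col8a1*, an endothelial and corneal collagen, and *Col15a1*, a basement membrane collagen, were the lowest with 3.60, 6.60 and 5.49 FPKM and 1.55, 0.610 and 0.531 FPKM. The mean of *Col15a1* was 0.897 FPKM with replicate 1 and 0.571 FPKM without it.

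Enzymes and chaperones that finish collagen had a value for 27 of 28, of which 5 were abundant and 20 moderate. *P4hb*, the protein disulphide isomerase subunit of prolyl 4-hydroxylase, had 516, 399.6 and 444 FPKM. *Serpinh1*, the collagen chaperone HSP47, had 448, 405 and 273 FPKM. *Lox*, which crosslinks collagen outside the cell, had 59.9, 216 and 167 FPKM, so that here replicate 1 was the lowest. *Pcolce*, which speeds cleavage of the procollagen tail, had 201, 132 and 142 FPKM, and *Fkbp10*, a collagen prolyl isomerase, 141, 153 and 165 FPKM. In contrast to the collagens, these genes took 0.863%, 0.820% and 0.775% of the sum, nearly the same share in each library.

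Matrix proteins other than collagen had a value for 30 of 40, and 8 were abundant. After *Fn1*, *Sparc* and *Spp1* came *Fmod*, fibromodulin, with 236, 187 and 238 FPKM, and *Nid2*, a basement membrane linker, with 237, 109 and 125 FPKM. The lowest were the microfibril gene *Mfap5* (1.61, 1.14 and 2.08 FPKM) and *Tgfbi* (0.853, 0.528 and 0.693 FPKM), and 10 members, among them *Eln* and *Vtn*, had no value here.

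Matrix proteases and their inhibitors had a value for 24 of 29, 5 of them abundant. *Timp2*, an inhibitor of metalloproteinases, had 361, 456 and 412 FPKM, and *Mmp2*, the gelatinase it binds, 346, 270.4 and 279 FPKM, with *Timp2* higher in each library. *Ctsd*, a lysosomal protease, had 215, 186 and 205 FPKM. *Timp1* had 114, 121 and 107 FPKM and *Timp3* 71.9, 149 and 111 FPKM, which overlapped. *Mmp9* was low with 2.18, 0.695 and 0.872 FPKM (mean 1.25, and 0.783 without replicate 1), and *Serpine2*, a protease inhibitor, had 0.999, 1.17 and 0.939 FPKM.

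Genes of mineralisation and phosphate handling had a value for 9 of 14. *Anxa2*, *Anxa5* and *Anxa6*, annexins found on matrix vesicles, had 365, 355 and 353 FPKM, 194, 282 and 309 FPKM, and 95.4, 68.4 and 72.1 FPKM, in that order without overlap. *Ank*, which exports pyrophosphate, had 14.2, 16.0 and 17.8 FPKM. *Smpd3*, a sphingomyelinase needed for mineralisation, had 1.69, 1.55 and 1.47 FPKM. *Alpl*, *Phospho1* and *Enpp1*, which make or use pyrophosphate and phosphate at the vesicle, had no value here.

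Secreted regulators had a value for 35 of 53, with 5 abundant, 17 moderate, 12 low and 1 very low. *Ptn*, pleiotrophin, a heparin-binding growth factor, led with 757, 447 and 638 FPKM and was above the next gene, *Psap*, which encodes the precursor of the saposins (398, 281 and 306 FPKM), without overlap. *Igfbp6*, which binds insulin-like growth factor 2, had 363, 138 and 162 FPKM. The secreted Wnt modulator *Sfrp2* had 201, 198 and 175 FPKM and *Dkk3*, of the Dickkopf family, 116, 216 and 204 FPKM.

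*Bmp6* (2.24, 1.06 and 0.920 FPKM) and *Gdf15* (0.714, 0.672 and 0.602 FPKM) were the lowest of the secreted genes with a value, and *Bmp2*, *Fgf2*, *Igf2*, *Nog* and *Dkk1* were among the 18 that had none here. Of the genes by which osteoblasts steer osteoclasts, chosen after their values were seen, *Csf1*, a growth factor of the macrophage lineage, had 51.4, 74.0 and 55.5 FPKM. *Tnfrsf11b*, the decoy receptor osteoprotegerin, had 2.37, 8.03 and 5.18 FPKM, and its ligand gene *Tnfsf11* had no value here. *Csf1* exceeded *Tnfrsf11b* by 21.6, 9.23 and 10.7 times.

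Cytokines and chemokines were the lowest group, with a median of 0.849 FPKM in the 9 of 22 that had a value. *Mif*, macrophage migration inhibitory factor, was the exception with 233, 468 and 446 FPKM. *Cx3cl1*, fractalkine, followed with 24.0, 22.4 and 27.1 FPKM, and *Cxcl12*, which holds haematopoietic cells in the marrow, with 4.37, 8.59 and 10.3 FPKM. *Ccl9* (0.332, 0.762 and 0.746 FPKM) and *Il33* (0.246, 0.661 and 0.695 FPKM) were at the bottom, and *Il6*, *Tnf* and *Il1b* had no value here.

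Receptors of growth factors and hormones had a value for 40 of 47, none of them abundant, with a median of 10.7 FPKM. *Smo*, the transducer of hedgehog signals, had 64.1, 41.9 and 40.9 FPKM, *Igf2r* 44.9, 40.6 and 44.0 FPKM and *Fzd2*, a Wnt receptor, 60.9, 28.0 and 32.1 FPKM. *Tgfbr2*, the type II receptor of TGF-β, had 25.3, 49.5 and 39.1 FPKM. The first 4 of the list overlapped one another. *Fgfr3*, which slows cartilage growth, was at 0.952, 0.676 and 0.777 FPKM, near *Pth1r* at the lower end.

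Intracellular signalling proteins had a value for 52 of 53, mostly moderate (33) or low (15). *Prkar1a*, a regulatory subunit of protein kinase A, was the 1 abundant member with 96.2, 107 and 108 FPKM. *Akt1* (115, 72.8 and 72.1 FPKM), *Gnas*, the stimulatory G protein (99.0, 68.0 and 73.3 FPKM), *Ctnnb1*, β-catenin (63.5, 51.8 and 65.1 FPKM), and *Jund* (86.9, 41.0 and 33.4 FPKM) followed. The immediate early genes *Fos* (0.751, 0.900 and 0.639 FPKM) and *Fosb* (1.28, 0.546 and 0.614 FPKM) were very low.

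Integrins and adhesion genes had a value for 26 of 30, with 6 abundant. *Itgb1*, the shared β1 chain that binds collagen and fibronectin, had 89.1, 215 and 202 FPKM, and *Sdc4*, a syndecan that helps it, 209.5, 127 and 124 FPKM. The tetraspanin *Cd63* was even with 145, 150.3 and 154 FPKM, as *Cd9* nearly was with 99.5, 121 and 129 FPKM. *Itga8* and *Itga1*, α chains, were lowest with 0.358, 0.852 and 1.06 FPKM and 0.407, 0.703 and 0.873 FPKM.

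All 60 genes listed for the secretory pathway had a value, 10 abundant and 48 moderate, with a median of 39.2 FPKM. Folding factors of the endoplasmic reticulum led it. *Calr*, calreticulin, had 437, 232 and 319.7 FPKM, *Hsp90b1*, the chaperone GRP94, 206, 330.2 and 377 FPKM, and *Pdia3*, a disulphide isomerase, 165, 233 and 255 FPKM. *Arf1*, a GTPase of Golgi vesicles, had 134, 179 and 171 FPKM. The lowest, *Srp54a* of the signal recognition particle and *Bet1* of vesicle fusion, still had 2.83, 10.8 and 10.3 FPKM and 2.35, 7.36 and 7.20 FPKM. The group took 1.46%, 1.63% and 1.70% of the sum in the 3 libraries.

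**Figure D4:**
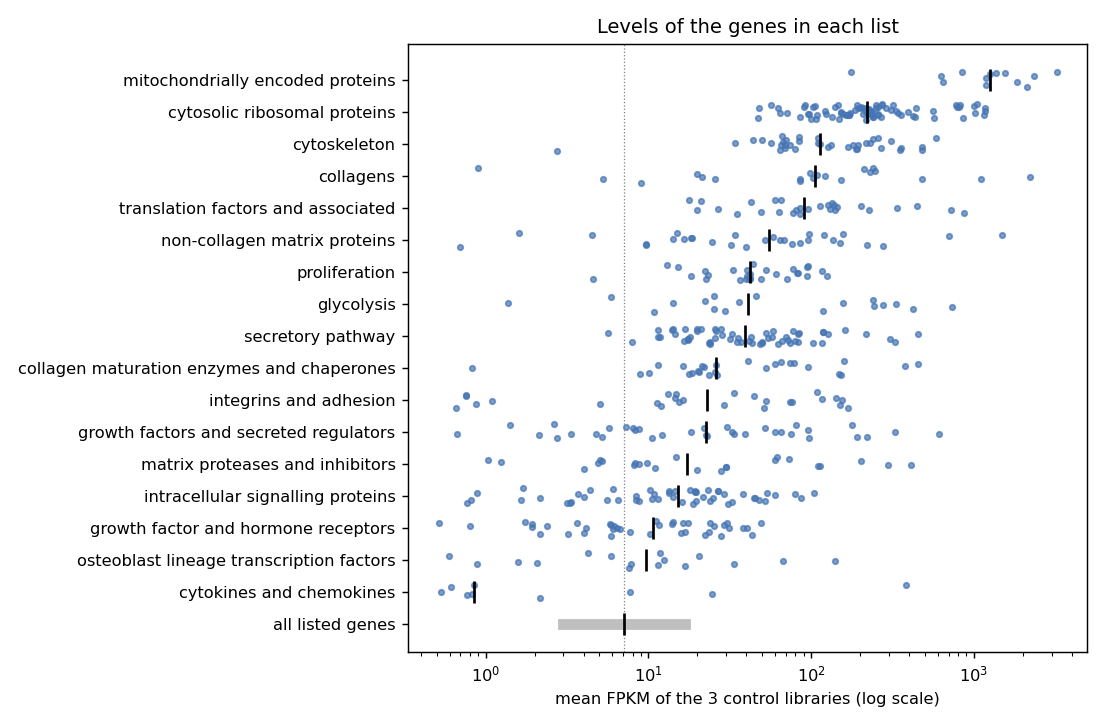
Mean FPKM over the 3 control libraries (log scale) of every gene with a value in 17 lists (blue points) with the median of each list (black bars), ordered by median. The grey bar at the bottom spans the quartiles of all listed genes, and the dotted line is their median of 7.09 FPKM. Genes of mitochondria, ribosomes, cytoskeleton and collagen lie highest, and cytokines and chemokines lowest. The order of the top lists differs between libraries. In replicate 1 the median was 59.5 FPKM for mitochondrial genes, 269 for ribosomal proteins, 188 for collagens and 107 for the cytoskeleton. Over replicates 2 and 3 it was 75.1 FPKM for collagens, below 97.5 FPKM for translation factors.

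Cytosolic ribosomal proteins had a value for 79 of 82, 68 of them abundant and 11 moderate, with a median of 221 FPKM. *Rps15* had 1819.9, 828 and 872 FPKM, *Rpl8* 1667, 902 and 947 FPKM and *Rpl41* 1863, 760.5 and 844 FPKM. The lowest were *Rpl22* (42.9, 49.5 and 51.1 FPKM) and *Rps15a* (56.1, 40.3 and 45.6 FPKM). Replicate 1 exceeded both others in 57 of the 79 (72.2%, against 36.5% of all listed genes), and the group took 13.8%, 8.00% and 8.38% of the sum. Many of these genes have processed copies in the genome that can share reads, so their single values are uncertain.

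Translation factors all had values (28 of 28), with *Eef2* at 848, 665 and 671 FPKM and *Eif4e*, the cap-binding factor, at 3.69, 25.3 and 24.2 FPKM. The latter was far lower in replicate 1 than in the others. Cytoskeletal genes were abundant in 21 of 37 cases, led by *Tuba1b* (666, 532 and 556 FPKM), *Cfl1*, the actin-severing factor cofilin (608, 413 and 415 FPKM), and *Actb*. Their median was 107, 111 and 115 FPKM in replicates 1, 2 and 3.

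Glycolytic genes had a value for 18 of 20. *Pgam1* had 792, 727 and 692 FPKM, *Pgk1* 325, 488 and 448 FPKM, *Pkm* 480.1, 272 and 248 FPKM and *Ldha* 308, 274 and 252 FPKM. *Eno2*, the neuronal enolase, was lowest with 1.31, 1.40 and 1.44 FPKM. The cells also carried transcripts of division, with a value for 29 of 30 proliferation genes, 26 of them moderate. *Ccnd1*, cyclin D1, had 108, 144 and 124 FPKM, *Cdc20*, an activator of mitotic exit, 146, 92.0 and 113 FPKM, and *Top2a*, a topoisomerase of dividing cells, 51.5, 109 and 126 FPKM. The cell cycle inhibitor *Cdkn1a* was at a similar level with 117, 82.1 and 84.7 FPKM, overlapping with *Top2a*.

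Genes used as references in expression studies differed in how even they were, from 0.018 to 1.31 in the SD of their log2 values over the 3 libraries. *Ppia*, cyclophilin A, was the most even with 215, 215 and 211 FPKM (mean 214 ± 2.62), at the 0.431st percentile of spread among the 4411 genes of at least 10 FPKM. *Gusb* had 14.9, 16.0 and 17.4 FPKM and *Actb* 539, 454 and 439 FPKM. *Polr2a* (31.3, 39.4 and 36.4 FPKM), *Rplp0* (909, 709 and 706 FPKM), *Hsp90ab1* (818, 595 and 665 FPKM) and *Tubb5* (294, 356 and 408 FPKM) also lay under the median spread of 0.35.

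*Gapdh*, the glycolytic enzyme most often used, had 65.8, 120.0 and 171 FPKM (mean 119 ± 52.6), at the 83.2nd percentile of spread. Replicate 1 was the lowest, and replicates 2 and 3 also lay apart. Its rank of 290 was below that of 7 other glycolytic genes. Processed copies of *Gapdh* are numerous in the mouse genome, and whether reads were lost to them was not tested.

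*B2m* (163, 432 and 518 FPKM), *Hprt* (16.1, 57.8 and 58.8 FPKM) and *Tfrc* (2.87, 20.3 and 14.8 FPKM) were the least even, and all 3 were lowest in replicate 1. Their transcripts held 41.2%, 40.1% and 39.8% GC, the lowest of the 18 references. *Pgk1*, *Sdha* (26.0, 35.0 and 37.6 FPKM) and *Ywhaz* (58.5, 107 and 95.8 FPKM) were also lower there, whereas *Rpl13a* (346, 192 and 211 FPKM) was higher. *Tbp* (1.20, 1.73 and 1.85 FPKM) was in the low class.

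**Figure D5:**
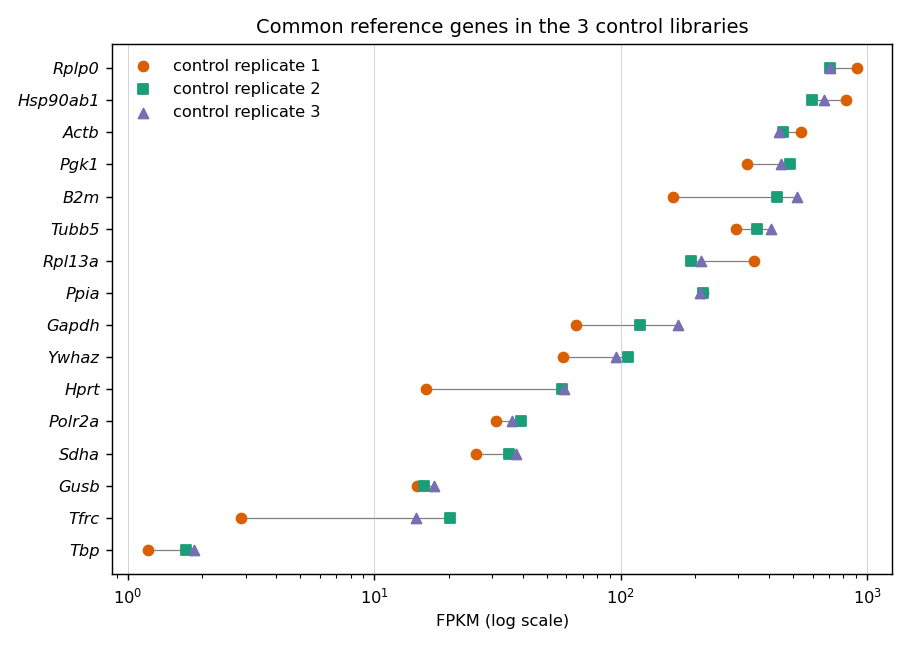
FPKM (log scale) of 16 of the 18 common reference genes in control replicates 1 (orange circles), 2 (green squares) and 3 (purple triangles), ordered by mean, with grey lines from the lowest to the highest library. *Ppia* spans 211 to 215 FPKM, whereas *Tfrc* spans 2.87 to 20.3 and *Gapdh* 65.8 to 171 FPKM.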

How the data were processed

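Total RNA of MC3T3-E1 cells was converted to stranded libraries and sequenced. Read quality was examined with FastQC, and the authors derived the deposited FPKM values per gene with Ballgown in R. No scaling between libraries beyond FPKM is stated. The submitters' processing notes name cutadapt, HISAT2 2.1.0, StringTie and STAR 2.5.2b without roles, and the human build hg19, although the gene identifiers are those of mouse Ensembl. The role of each aligner is not given in the sources used here. Read depth is unknown, because low values of genes with a single transcript showed no common step.

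Samples were grouped by their titles. The 3 control libraries were ranked by mean FPKM and placed in classes at 100, 10 and 1 FPKM, with Python 3.11.15, pandas 2.3.3 and scipy 1.17.1. No test was made, since there is only 1 group and 3 paired values cannot give an exact two-sided p below 0.25. Genes were counted as ordered where their ranges did not overlap. Log2 values used a pseudocount of 1 FPKM. Symbols, positions, transcript length and GC content (of the longest transcript) came from GENCODE M21 on GRCm38; 23 identifiers had no symbol and 9812 of 11234 carried the version number of M21. *Ctgf*, *Cyr61*, *Nov*, *Wisp1* and *Wisp2* were read as *Ccn2*, *Ccn1*, *Ccn3*, *Ccn4* and *Ccn5*. Named genes were the 4 markers, the 30 highest, in each of 30 lists the 5 highest and 2 lowest with a value (all in lineage lists), the reference genes, and the 5 genes departing most in each direction in replicate 1 among those of at least 10 FPKM. The members and lists were chosen with earlier results of these data known. Of these, 3 genes are counted in their lists but not reported here singly. The scripts were tested on simulated data. Alternatives were medians, a common sum, quantile normalization, a GC correction (spline with 5 degrees of freedom), a pseudocount of 0.1, a filter on a mean of at least 1 FPKM, and leaving out each library.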

Additional observations from a re-analysis of the deposited data

How the results depend on the processing

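No paired analysis was possible because every value comes from 1 group and from no test. Leaving out any 1 library, taking medians and quantile normalization kept the class counts within 1.5-fold. A mean of 3 libraries cannot move by more than their SD when 1 is left out or the median is taken, so for single genes that measure says nothing about stability and the values are given instead. With 1 library left out, the mean ranged from 1082 to 2827 FPKM for *Col1a1*, from 598 to 775 for *Sparc*, from 255 to 317 for *Spp1* and from 6.97 to 8.65 for *Runx2*. The mean of the library medians was 6.84 FPKM with all 3 libraries and ranged from 6.55 to 7.35 FPKM. Each library's own 10 and 100 highest genes took a mean of 10.3% and 28.7% of its sum. These shares ranged from 9.93% to 10.6% and from 28.2% to 28.9%. Of the 29 list medians 3 moved by more than 1 SD without replicate 1, 1 without replicate 2 and 1 without replicate 3, 3 with medians and 1 with GC correction. Among 208 named genes, leaving out replicate 1 moved 19 means by more than 1.5-fold. Rescaling each library to a sum of 1e+06 changes the unit by its construction, and gave 1909 abundant, 6984 moderate, 2333 low and 8 very low genes. The mean of the library medians became 27.7, and the gene means 8879 for *Col1a1*, 2830.3 for *Sparc*, 1124 for *Spp1* and 30.7 for *Runx2*. The classes therefore hold for the deposited FPKM scale alone. After GC correction the 10 and 100 highest genes took 8.60% and 27.4% of the sum, against 10.3% and 28.7% before it. With a mean of at least 1 FPKM required, 0 very low genes remained by construction.

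With a pseudocount of 0.1, r was 0.868 between replicates 1 and 2, 0.880 between 1 and 3 and 0.981 between 2 and 3, and rho with GC content was 0.755, -0.697 and -0.697 in replicates 1, 2 and 3. With the filter on the mean, r was 0.870, 0.884 and 0.986 and rho 0.756, -0.702 and -0.704. Depth is unknown, so it cannot be said how far low values are limited by counting.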
